A study of Mus musculus with 21 samples.

Results

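The 9 libraries described here are the control tail epidermis of a study of basal cell carcinoma in mice, 9 of its 21 libraries in all. They were taken from the deposited count table by their column names, which mark them as controls, and fall into 3 groups of 3: SmoM2 Con, Gnas-eKO Con and PKI Con. Each group was the tumour-free partner of 1 tumour model of the same name. In the field SmoM2 is an activated mutant of the Hedgehog receptor Smoothened, Gnas-eKO reads as a knockout of the G protein gene Gnas in epidermis, and PKI as a peptide inhibitor of protein kinase A, but the labels spell out none of these names. Polyadenylated RNA was sequenced from keratinocytes of tail skin that had been digested overnight with trypsin and dispase, scraped from the dermis and passed through strainers. The controls of SmoM2 were taken 29 days, those of Gnas-eKO 42 days and those of PKI 57 days after the tumours of their model were induced, in batches A, B and C. Day, batch and model are thus 1 split of the libraries and cannot be told apart. The labels give neither the alleles that the control mice carried, nor what induced the tumours and whether controls received it, nor the mice's strain, sex or age. In the column headers the animals of SmoM2 Con and Gnas-eKO Con share the name prefix TJ, and those of PKI Con have the prefix ZQ, whose meaning is not stated. Nothing in the labels says whether the 3 libraries of a group came from separate mice, although each header gives an animal name of its own. The p-values below therefore measure the spread between these libraries.

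Epidermis is a layered sheet of keratinocytes. Basal cells, which divide, make the keratin pair Krt5 and Krt14, and cells moving outward switch to Krt1 and Krt10, then to Krt2 and the proteins of the cornified envelope. Mouse tail skin is known for alternating territories: scales, where cells make hair-type hard keratins such as Krt36 and Krt84, and interscale skin around the follicles, where cells make Krt10 and Krt2. Melanocytes, Langerhans cells and gamma delta T cells are other residents of mouse epidermis, and sebaceous glands and hair follicles extend from it.

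Libraries held 16645810 to 22251107 estimated counts, with a median of 19791322. Between 14219 and 14580 genes reached 1 CPM (counts scaled to a library total of 1000000, with TMM factors applied here). A count of 0 in a library allows up to 3 counts, or 0.133 to 0.184 CPM, for counting error only. The 10 genes with the most counts took 10.9 to 12.9% of a library, and transcripts of the mitochondrial genome 1.98 to 3.35%. Neither these measures nor the total passed a test for a difference between the 3 groups (exact permutation test over 280 assignments of libraries to groups, p = 0.321 for the total, 0.339 for the top genes and 0.411 for the mitochondrial share; adjusted over the 3 measures, 0.411 each). Pairs of libraries correlated at r = 0.958 to 0.985 across genes on the log2 CPM scale, where genes are not independent replicates.

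Keratin genes held 6 of the 7 highest levels of single genes. Levels between genes are compared per length, as TPM (transcripts scaled to 1000000 per library) computed from the deposited counts and the exon length of each gene. Krt10, the suprabasal type I keratin, was highest at 22660 ± 4663 TPM (SD over the 9 libraries, as for the other values of this paragraph). The basal keratins Krt14 and Krt5 followed at 18321 ± 1884 and 17200 ± 1336 TPM, then the scale keratin Krt36 at 15429 ± 5693 TPM. Krt2, a keratin of upper layers, and Krt84, the second scale keratin, had 14566 ± 2361 and 14277 ± 5794 TPM, beside mt-Co1, a subunit of cytochrome c oxidase, at 15369 ± 2337. Within these 7 genes, each differed from its neighbour in order by less than the larger of their 2 SDs, so the order itself is not firm. The 53 keratin genes with a known length together made up 11.3 ± 0.857% of all TPM, between 10.5 and 12.6% in single libraries. Just 166 genes held 50% of the TPM, while 13115 genes reached 1 TPM in all 9 libraries.

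**Figure D1:**
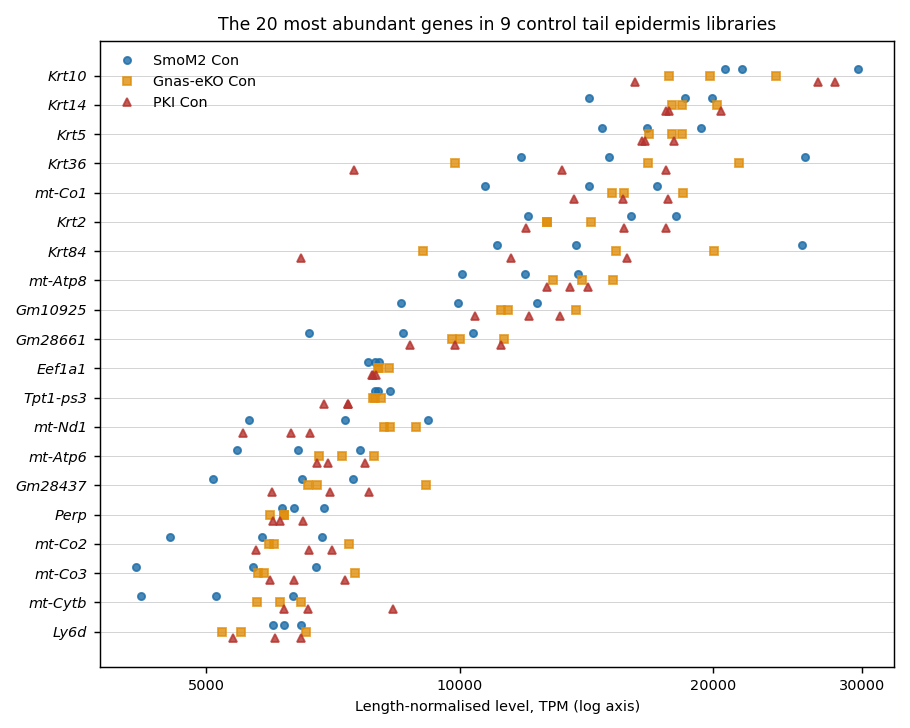
The 20 genes with the highest mean level, 1 row each, with the level in every library on the horizontal axis in TPM (log axis) and a marker shape for each control group. Krt36 and Krt84 spread from 7492 to 25677 and from 6479 to 25471 TPM, while Eef1a1 stays between 7777 and 8234.

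The pair of scale keratins varied together and more than the basal pair. Krt36 stood at 11815, 15034 and 25677 TPM in SmoM2 Con, 16751, 21434 and 9880 in Gnas-eKO Con, and 17563, 13218 and 7492 in PKI Con. Krt84 had 11073, 13732 and 25471 TPM in SmoM2 Con, 15335, 20056 and 9050 in Gnas-eKO Con, and 15801, 11497 and 6479 in PKI Con. The third SmoM2 Con library was the highest and the third PKI Con library the lowest for both, the groups overlapped, and neither gene was called in any comparison of groups. Krt5, by contrast, ran from 14753 to 19320 TPM and Krt14 from 14241 to 20409, both lowest in SmoM2 Con library 3. Summed over the 12 measured members of a list of scale and hard keratin genes, the level ran from 11906 to 45515 CPM with a median of 25823. Krt85, another listed member, is not analysed here.

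Other keratins lay well below the leading ones. Krt15, made by basal and follicle stem cells, had 2405 ± 409 TPM, and Krt1, the usual partner of Krt10, 2262 ± 892. Krt17, Krt24 and Krt79, of follicle and duct cells among others, had 1715 ± 319, 1216 ± 279 and 660 ± 83.6 TPM. The wound keratins Krt6a and Krt16 had 929 ± 221 and 166 ± 78.7 TPM, and Krt6b 85.8 ± 68.3, with a split between groups described further on. Krt71 and Krt25 of the inner root sheath, a layer around the growing hair, had 60.5 ± 40.6 and 55.6 ± 38.3 TPM. Both were lowest in PKI Con libraries 2 and 3, Krt71 at 6.15 and 6.75 TPM, against 36.8 to 118 in the other 7 libraries. Keratin-associated proteins, which fill the hair shaft, added 0.186 ± 0.147% of TPM over 49 genes, from 0.0507 to 0.457%.

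After the keratins came genes of energy supply and protein synthesis. The 15 genes of the mitochondrial genome in the table made up 7.35 ± 0.97% of TPM and 87 cytosolic ribosomal protein genes 4.48 ± 0.106%. Eef1a1, the elongation factor that carries transfer RNA to the ribosome, was among the steadiest of the abundant genes at 7969 ± 127 TPM. Perp, a desmosome protein, had 6266 ± 293 and Ly6d, a surface protein of stratified epithelia, 5986 ± 506 TPM. Several entries among the 20 leading genes were pseudogenes whose values cannot be told apart from those of their parents. Gm10925 on chromosome 1 (11428 ± 1626 TPM) matches mt-Atp6 in 100% of 678 aligned bases, Gm28661 (9606 ± 1461) matches mt-Co2 in 100% of 681, Gm28437 (6931 ± 1145) matches mt-Co3 in 100% of 783, and Tpt1-ps3 (7748 ± 435) matches Tpt1 in 100% of 519. Processed pseudogenes, 3624 of them with a length, were assigned 25.4 ± 0.932% of all TPM. Reads that fit a parent gene and its copy equally well can be assigned to either, so levels of such genes are uncertain.

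Markers of every layer of the epidermis were present. All 14 basal, all 12 spinous and 21 of 22 granular and cornified keratinocyte markers averaged at least 1 CPM. All 16 sebocyte markers were in the table and 15 reached that level, summing to 3300 to 7597 CPM, and the 14 markers of follicle stem cells and outer root sheath summed to 3015 to 3847. The 12 melanocyte markers summed to 140 to 249 CPM, the 13 Langerhans cell and macrophage markers to 65.6 to 201, and 11 T cell markers to 33.5 to 142, most of it Thy1, which other cells make too. Without Thy1 the T cell markers summed to 5.95 to 7.72 CPM in SmoM2 Con, 8.17 to 11.5 in Gnas-eKO Con and 13.2 to 22.8 in PKI Con. Fibroblast markers summed to 79.3 to 146 CPM over 12 genes, within the span of the Langerhans cell and macrophage list. Schwann cell markers summed to 79.1 to 99.9 CPM over 7 genes, nearly all from Mbp and Pmp22, while Foxd3, a transcription factor of the lineage, stayed at or under 0.587 CPM. Traces were left of endothelium (2.7 to 7.09 CPM over 9 genes), skeletal muscle (1.24 to 3.07 over 9), Merkel cells (5.33 to 9.16 over 7) and neutrophils (1.17 to 5.38 over 4). Haemoglobin and other erythroid genes were the least even, at 1.91 to 72.8 CPM over 7 genes. In Gnas-eKO Con they summed to 20.4 to 72.8, against 1.91 to 15.8 in SmoM2 Con and 2.78 to 6.59 in PKI Con, with no member called by edgeR. DESeq2 called Hba-a1 and Hbb-bt, haemoglobin chains, between PKI Con and Gnas-eKO Con. In bulk RNA, fewer cells of a type and less RNA per cell cannot be told apart.

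PKI Con stood apart from the other controls, which were as close to each other as replicates were. The mean Euclidean distance between libraries over the log2 CPM of 16298 genes was 72.6 within SmoM2 Con, 71.3 within Gnas-eKO Con and 70.8 within PKI Con. Between SmoM2 Con and Gnas-eKO Con it was 70.7, but 87.2 from SmoM2 Con to PKI Con and 88.6 from Gnas-eKO Con to PKI Con. The ratio of between-group to within-group distance was 1.15 (exact one-sided permutation test over 280 assignments, p = 0.0179; the smallest possible p is 0.00357), and it stayed at 1.11 to 1.19 without each library in turn. On the first principal component, with 32.9% of the variance, PKI Con lay at -49.1 to -21.6 and the other 6 libraries at 0.819 to 35.5. The second, with 21.5%, ordered the libraries inside each group: the third SmoM2 Con library at 27.4 against -33.1 and -21.4, the first 2 Gnas-eKO Con libraries at 10.9 and 5.29 against -30.3, and the first PKI Con library at 46.2 against 0.876 and -5.73. Those 4 libraries are the ones with 831 CPM or more of Xist, where the others had at most 0.167. Without genes of chromosomes X and Y each of the 4 still had the highest values of its group, on a component with 19.3% of the variance.

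Most genes varied little between control libraries. The SD of log2 CPM over the 9 libraries had a median of 0.198 over 16298 genes, with quartiles at 0.118 and 0.385, and 552 genes exceeded 1. Inside groups the median residual SD was 0.183. Of 3511 genes averaging 6 or more in log2 CPM, the 10 steadiest were Dnajc14, Uqcrc2, Man1b1, Myo9b, Impad1, Arpc3, Cacul1, Slc25a3, Stag2 and Atp5a1. Dnajc14, a co-chaperone, lay between 103 and 108 CPM in all 9 libraries, and Uqcrc2, a core subunit of respiratory complex III, between 107 and 113. Slc25a3, the mitochondrial phosphate carrier, had 268 to 284 CPM and Atp5a1, the alpha subunit of ATP synthase, 567 to 588.

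Among 11923 genes averaging 2 or more in log2 CPM, Xist, the RNA that silences 1 X chromosome in female cells, had the highest SD. It had 0.0444, 0.167 and 831 CPM in SmoM2 Con, 921, 995 and 0.0493 in Gnas-eKO Con, and 929, 0.123 and 0 in PKI Con. Ddx3y, a Y-linked RNA helicase, had 93.2, 89.5 and 0 CPM in SmoM2 Con, 0, 0 and 84.7 in Gnas-eKO Con, and 0, 90.6 and 88.1 in PKI Con. No library had more than 0.167 CPM of Xist where Ddx3y was present. In 4 libraries Xist reached 831 CPM or more: 1 of SmoM2 Con, 2 of Gnas-eKO Con and 1 of PKI Con. They are called the libraries with Xist, or Xist libraries, from here on. Eif2s3y, a Y-linked translation factor subunit, followed Ddx3y, at 66.2 to 83.8 CPM where Ddx3y was present and 0 in the 4 Xist libraries.

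An autosomal gene followed Xist as closely. Cyp2g1, a cytochrome P450 gene at chr7:26808892-26821205, had 212 CPM in the SmoM2 Con library with Xist and 0.533 and 0.167 in the others, 152 and 118 against 0.0493 in Gnas-eKO Con, and 148 against 0.245 and 0.175 in PKI Con. Its lowest value with Xist, 118 CPM, was far above its highest without, 0.533. Hhip, a membrane protein that binds and restrains Hedgehog ligands, had 27.7 against 2.8 and 1.33 CPM in SmoM2 Con, 24.7 and 17.8 against 1.82 in Gnas-eKO Con, and 50.1 against 1.66 and 4.26 in PKI Con, again with no overlap. Of the 15 genes with the highest SD, Xist, which defines the split, Cyp2g1 and the Y-linked Ddx3y and Eif2s3y separated the 4 Xist libraries from the other 5, and 11 overlapped. Cyp2g1 stands in this description for its spread and Hhip for its spread and because earlier results of these data named it beside Xist, so no test of how they follow Xist is given.

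**Figure D2:**
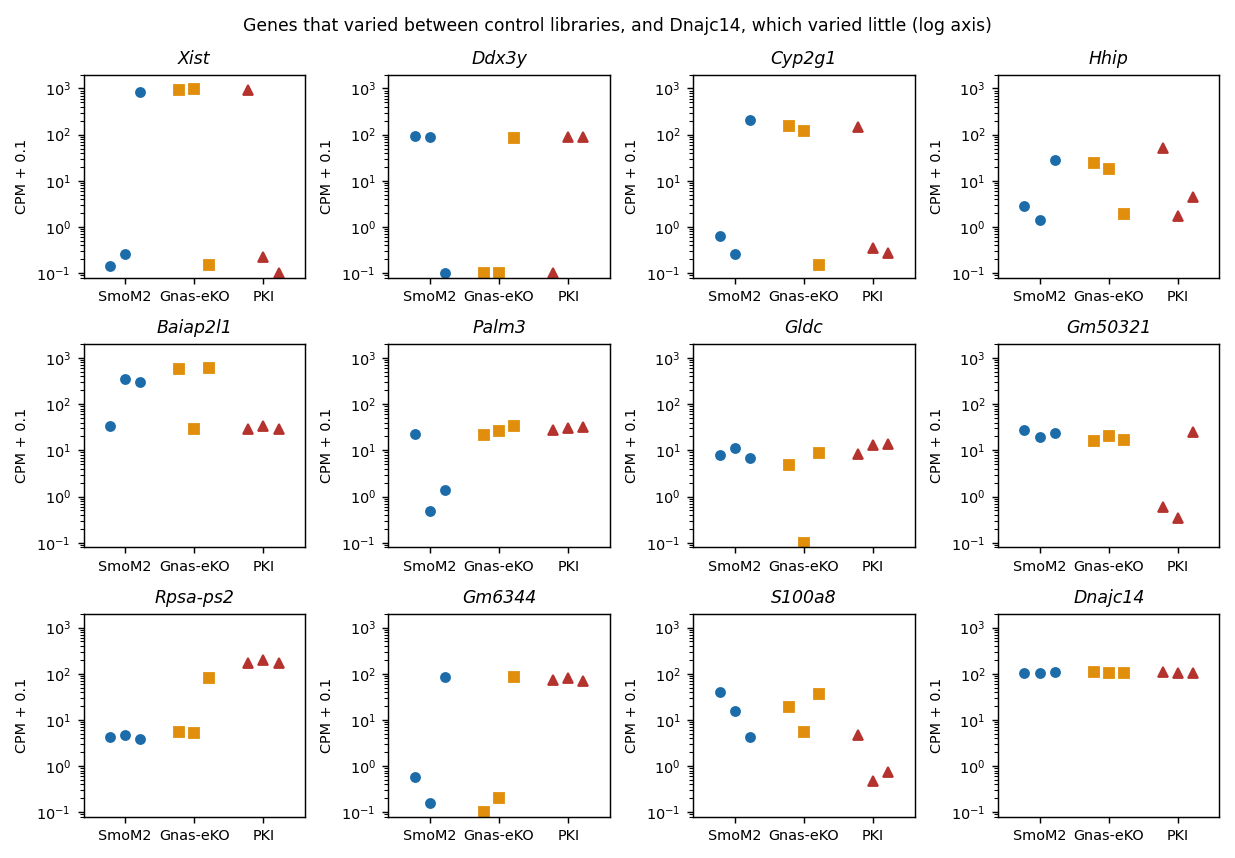
Levels of 12 genes in the 9 libraries, 1 point per library in the order of their replicate numbers, on a log axis of CPM plus 0.1, by control group. Xist and Cyp2g1 are high in the same 4 libraries, in which Ddx3y is at 0, and Dnajc14 lies between 103 and 108 CPM throughout.

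Other variable genes were near 0 in 1 or 2 libraries of a group. Palm3, a paralemmin, had 22.8, 0.389 and 1.29 CPM in SmoM2 Con and 21.3 to 33 in the other 6 libraries. Gldc, the glycine cleavage enzyme, was at 0 in the second Gnas-eKO Con library and between 4.65 and 13.8 CPM in the rest. Gm50321 had 0.487 and 0.245 CPM in the first and second PKI Con libraries and 15.9 to 27.9 in the other 7, and Smco3 fell in the same 2 libraries, at 0.39 and 0.0613 against 5.6 to 11.5 CPM. A graded pattern belonged to S100a8 and S100a9, partner alarmins that keratinocytes make under stress and neutrophils carry. S100a8 had 40.9, 15.2 and 4.19 CPM in SmoM2 Con, 19.2, 5.27 and 35.9 in Gnas-eKO Con, and 4.53, 0.368 and 0.642 in PKI Con. S100a9 had 55.4, 15 and 4.86, then 28.1, 4.52 and 34.2, then 4.73, 1.1 and 0.583 CPM. The Xist libraries were the lowest of SmoM2 Con and Gnas-eKO Con for both genes and the highest of PKI Con. Baiap2l1, an actin-binding adaptor picked after its values were seen, took 2 levels: 298 to 614 CPM in 4 libraries and 28.7 to 33.9 in the other 5, among them all of PKI Con. It overlaps Bri3 and Gm15708 on the annotation, and whether the counting used strand is not given in the sources used here.

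Several of the most variable genes were ribosomal protein genes with near-identical copies elsewhere in the genome, and gene and copy often moved in opposite directions. Rpl29, a protein of the large ribosomal subunit (chr9:106429454-106431568, GRCm38), had 6.75, 5.33 and 192 CPM in SmoM2 Con, 5.77, 4.68 and 213 in Gnas-eKO Con, and 196, 221 and 187 in PKI Con. Its processed pseudogene Gm6344 (chr13:55085777-55086259) was high in the same 5 libraries, at 70.2 to 84.2 CPM, and at most 0.488 in the other 4. Gm8210 (chr1:43189156-43189638), another copy, moved the opposite way, with 176, 198 and 42.1 CPM in SmoM2 Con, 192, 188 and 37.1 in Gnas-eKO Con, and 27.5, 44.3 and 24.9 in PKI Con. The copy Gm13841 (chr5:115801677-115802159, minus strand) stayed between 97 and 134 CPM. The coding stretch from base 61 to 310, counted from the A of the start codon, is shown for these 4 because it holds all the differences found between them over 422 compared bases. Capitals mark the 2 variable positions.
Rpl29: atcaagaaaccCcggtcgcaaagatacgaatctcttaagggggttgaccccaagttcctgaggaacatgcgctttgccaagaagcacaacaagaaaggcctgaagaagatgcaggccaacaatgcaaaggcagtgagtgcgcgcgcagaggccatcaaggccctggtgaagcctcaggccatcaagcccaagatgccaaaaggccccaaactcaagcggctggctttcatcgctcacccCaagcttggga
Gm6344: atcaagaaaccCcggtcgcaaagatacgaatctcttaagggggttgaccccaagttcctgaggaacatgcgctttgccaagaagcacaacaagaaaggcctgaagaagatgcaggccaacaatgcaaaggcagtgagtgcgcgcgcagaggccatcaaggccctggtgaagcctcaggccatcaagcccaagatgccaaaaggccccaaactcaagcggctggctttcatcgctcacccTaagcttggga
Gm8210: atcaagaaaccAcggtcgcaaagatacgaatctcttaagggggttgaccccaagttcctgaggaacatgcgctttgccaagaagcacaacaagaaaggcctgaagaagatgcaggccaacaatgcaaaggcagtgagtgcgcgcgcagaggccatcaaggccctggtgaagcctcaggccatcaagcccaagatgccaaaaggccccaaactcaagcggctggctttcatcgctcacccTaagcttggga
Gm13841: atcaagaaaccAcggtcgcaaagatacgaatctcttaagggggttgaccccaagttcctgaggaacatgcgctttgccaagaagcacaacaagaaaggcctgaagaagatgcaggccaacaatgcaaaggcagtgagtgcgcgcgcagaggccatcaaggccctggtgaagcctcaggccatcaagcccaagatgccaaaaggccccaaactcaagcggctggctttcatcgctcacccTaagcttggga
Against Rpl29, Gm6344 carries C300T alone, and both Gm8210 and Gm13841 carry C72A and C300T. Summed over Rpl29 and its 38 copies, the level ran from 323 to 475 CPM, a far narrower span than that of Rpl29 alone. It was nonetheless higher in the 5 libraries with high Rpl29, at 400 to 475 CPM, than in the other 4, at 323 to 350. Rpl21 shifted in another set of libraries, with 265, 142 and 140 CPM in SmoM2 Con, 20.6, 280 and 145 in Gnas-eKO Con, and 244, 259 and 139 in PKI Con, while its sum with 55 copies ran from 682 to 848.

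Which genes differed between the control groups was tested with edgeR's quasi-likelihood test on 16298 genes, with p-values adjusted over all of them and a threshold of 0.05. Any difference among the 3 groups was called for 268 genes (1.64%). Gnas-eKO Con differed from SmoM2 Con in 1 gene (0.00614%), with 739 at an unadjusted p under 0.05. Without single libraries this comparison gave 0 to 11 calls. PKI Con differed from SmoM2 Con in 292 genes (1.79%), 163 higher (1.00%) and 129 lower (0.792%), and 149 of the 292 changed at least 2-fold. From Gnas-eKO Con it differed in 275 genes (1.69%), 138 higher (0.847%) and 137 lower (0.841%), 147 of them at least 2-fold. These 2 comparisons share the PKI Con libraries. The median log2 fold change over all genes was -0.004 and 0. DESeq2 called 685 and 709 genes and 794 for any difference, and a replicate block gave 166, 156 and 130. A covariate for Xist gave 529 against SmoM2 Con, 383 against Gnas-eKO Con and 438 for any difference. Single libraries moved these counts by over 1.5 times: PKI Con against SmoM2 Con gave 155 without SmoM2 Con 2, 181 without PKI Con 1 and 172 without PKI Con 3. PKI Con against Gnas-eKO Con gave 156 and 145 without Gnas-eKO Con 1 and 2, and 163 and 170 without PKI Con 2 and 3. For any difference, 174 genes were called without SmoM2 Con 2, 176 without Gnas-eKO Con 1, and 144, 149 and 144 without PKI Con 1, 2 and 3.

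**Figure D3:**
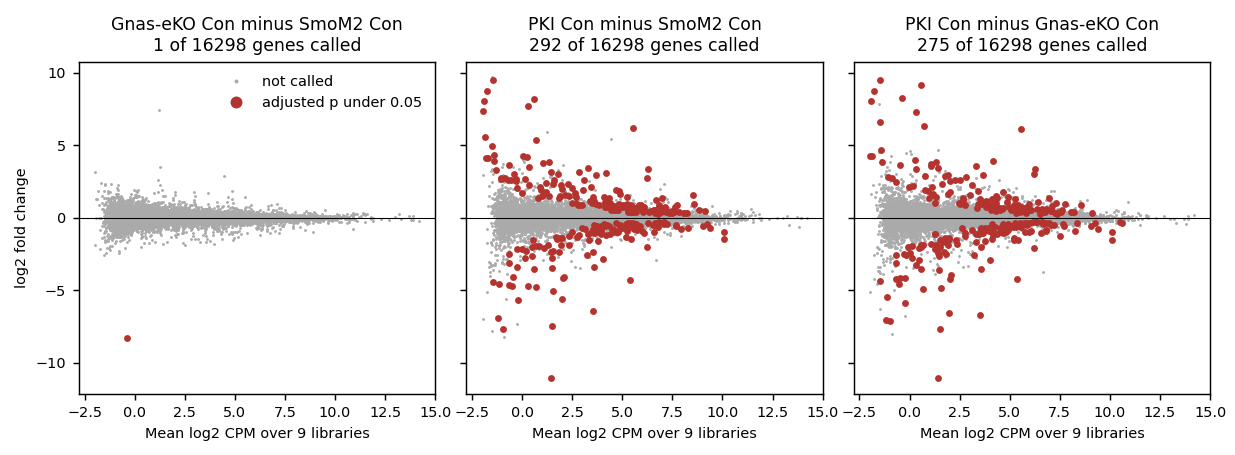
Each point is 1 of 16298 genes, with its mean log2 CPM over the 9 libraries across and its log2 fold change between 2 control groups upward; larger red points passed an adjusted p of 0.05. The panel of Gnas-eKO Con against SmoM2 Con has 1 such gene and the PKI Con panels have 292 and 275.

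The gene called between SmoM2 Con and Gnas-eKO Con was Syt4, a synaptotagmin of vesicle release, which was scarce in epidermis. It had 1.82, 2.44 and 1.96 CPM in SmoM2 Con, 0 in all 3 Gnas-eKO Con libraries, and 1.71, 1.59 and 2.63 in PKI Con. Gnas-eKO Con was thus below both other groups, which overlapped. Against the floor of 3 counts per library, 0.152 CPM, SmoM2 Con was at least 13.7-fold and PKI Con at least 13.0-fold higher (adjusted p = 0.0295 and 0.000743, edgeR). The first call was lost in 10 of 18 other settings, among them without SmoM2 Con 2 or 3 (adjusted p = 0.0985 and 0.109), without Gnas-eKO Con 1 or 3 (0.0981 and 0.0951) and without PKI Con 2 or 3 (0.118 and 0.0579). DESeq2 called 19 other genes and not Syt4.

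Some genes with no near-identical transcript found among the other counted genes set PKI Con apart by wide margins. Gem, a small GTP-binding protein that restrains calcium channels (chr4:11704457-11714752), had 26.7, 23.6 and 26.9 CPM in SmoM2 Con, 25.2, 27.2 and 29.7 in Gnas-eKO Con, and 1.41, 3.62 and 2.22 in PKI Con. All 3 PKI Con libraries lay below all others, and the log2 fold change was -3.43 ± 0.26 (SE) against SmoM2 Con and -3.52 ± 0.26 against Gnas-eKO Con (adjusted p = 0.000107 and 9.88e-05). Reep1, a protein that shapes the endoplasmic reticulum, fell from 30.4 to 33.6 CPM in SmoM2 Con and 27.4 to 41.1 in Gnas-eKO Con to 3.36, 2.27 and 7.76 in PKI Con (log2 fold change -2.84 and -2.94, adjusted p = 0.0102 and 0.00926). In the other direction went Adh6a, an alcohol dehydrogenase, with 2.4, 5.99 and 6.31 CPM in SmoM2 Con, 5.72, 4.62 and 2.81 in Gnas-eKO Con, and 35.9, 49.1 and 68.7 in PKI Con (log2 fold change 3.40 ± 0.42 and 3.54 ± 0.43, adjusted p = 0.00782 and 0.00633).

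For Ostf1 and Slc15a2 the difference was close to on or off. Ostf1, an SH3 domain protein named after its values were seen (chr19:18516137-18631823), had 0.389 CPM or less in all 6 libraries of SmoM2 Con and Gnas-eKO Con, and 57.5, 62.8 and 63 in PKI Con (adjusted p = 2.2e-06 and 2.1e-06). Slc15a2, a peptide transporter also named after the fact, had at most 0.391 CPM in those 6 libraries and 39.5, 39.4 and 20.2 in PKI Con (adjusted p = 0.00034 and 0.000372). No fold is given for either, since most of the low libraries held a handful of counts. Cdc42ep2, an effector of the GTPase Cdc42 with 1 near-identical copy (Gm4707, 90.7% identical), had 8.85 to 14.4 CPM in the 6 libraries and 0.926, 0.552 and 0.408 in PKI Con (log2 fold change -4.08 ± 0.31 and -3.98 ± 0.31, adjusted p = 8.56e-05 and 0.0001). AI506816, a processed transcript with 3 such copies (the closest Gm46223, 92.6%), was higher in PKI Con and present in all: it had 1.96 to 16.5 CPM in the 6 libraries and 89.9, 114 and 89.3 in PKI Con (adjusted p = 0.0389 and 0.02). Its call against SmoM2 Con was lost without any 1 library of SmoM2 Con or PKI Con and without Gnas-eKO Con 2 or 3 (0.0539 to 0.147). Against Gnas-eKO Con it was lost without Gnas-eKO Con 2 or 3 or any 1 PKI Con library (0.0506 to 0.0776). By their whole spans, introns included, many of the called genes named here overlap another gene. Where exons overlap too, which was not examined, reads of either partner could be counted for them. These genes are Reep1, Slc15a2, Rps2, Rps18, Rps18-ps6, Rps28, Rpl3, Rpsa, Gm45855, Rps2-ps10, Fabp5l2, Mettl7a2, Krt6b, Gnas, Trdc, Nr1d1, Dbp, Hspa1a, Ide, Wdfy1, BC023719, H2-T10, H2-T22, H2-T23 and H2-Q4. The same holds for Xist, Ddx3y, Palm3, Smco3, Gm6344, Gm8210, Krt5, Krt10, Krt6a and Smo among others that were not called.

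Rps2, a protein of the small ribosomal subunit, rose in PKI Con, and the rise did not extend to the sum of the gene and its copies. Rps2 (chr17:24718116-24721929) had 11.3, 9.66 and 11.8 CPM in SmoM2 Con, 13.6, 10.2 and 11.3 in Gnas-eKO Con, and 758, 829 and 805 in PKI Con (log2 fold change 6.19 ± 0.13 and 6.09 ± 0.13, adjusted p = 2.74e-09 and 3.06e-09). Its 47 near-identical copies together had 1465 to 1677 CPM in the first 2 groups and 637, 697 and 671 in PKI Con. Gene and copies summed to 1477 to 1687 CPM outside PKI Con and to 1395, 1526 and 1477 in it, a difference of -0.06 and -0.16 on the log2 scale. Rps18 rose likewise from 31.8 to 40.6 CPM to 345, 384 and 355 (log2 fold change 3.32 and 3.34, adjusted p = 4.77e-08 and 4.53e-08), but whether its copies offset this depends on which are counted. With the 9 copies matched by sequence the sum was also higher, at 47.1 to 57.8 CPM outside PKI Con and 372, 411 and 375 in it (log2 difference 2.91 in both). With 3 more counted by name alone it was 1167 to 1297 CPM outside PKI Con and 1085, 1217 and 1129 in it. Nearly all of what these 3 added lay in Rps18-ps6, at 769 to 858 CPM outside PKI Con and 443 to 507 in it, and Rps18-ps5, at 340 to 380 and 269 to 298. Rps18-ps5 and Rps18-ps6 had no transcript sequence to compare with that of Rps18, so their likeness to it was not measured. Rps28, also of the small subunit, rose from 18.9 to 23.7 CPM to 60.8, 65.1 and 56.5 (log2 fold change 1.63 and 1.44, adjusted p = 4.29e-06 and 1.09e-05), with sums over gene and 8 copies of 302 to 328 CPM outside PKI Con and 322, 341 and 323 in it. Gm45855, a copy of Rps2 on chromosome 8, rose from 5.07 to 7.78 CPM to 47.1, 52.6 and 48.5 (log2 fold change 2.95 and 2.93, adjusted p = 2.32e-06 and 2.79e-06).

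Rpl3, of the large subunit, shows how little separates a gene from its copy. It had 38.6, 46.5 and 40.7 CPM in SmoM2 Con, 34.9, 35.3 and 36.3 in Gnas-eKO Con, and 271, 297 and 273 in PKI Con (log2 fold change 2.74 ± 0.08 and 2.98 ± 0.08, adjusted p = 4.77e-08 and 2.39e-08). Rpl3-ps1, its processed copy on chromosome X, held far more reads, 1606 to 1725 CPM outside PKI Con and 1261, 1396 and 1356 in it. Over 1209 compared bases the 2 differ by C57A and T786C, counted from the A of the start codon, and the stretches around both are shown with the differing base in capitals (GRCm38, Rpl3 at chr15:80077791-80091868 on the minus strand, Rpl3-ps1 at chrX:13202571-13203780 on the plus strand).
Rpl3, bases 31 to 90: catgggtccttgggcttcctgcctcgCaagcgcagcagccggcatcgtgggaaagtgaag
Rpl3-ps1, bases 31 to 90: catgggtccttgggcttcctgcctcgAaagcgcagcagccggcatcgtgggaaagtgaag
Rpl3, bases 751 to 810: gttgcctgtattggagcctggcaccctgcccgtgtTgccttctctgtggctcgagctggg
Rpl3-ps1, bases 751 to 810: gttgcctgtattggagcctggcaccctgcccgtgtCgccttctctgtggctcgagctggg
The sum over Rpl3 and its 9 copies was 1685 to 1803 CPM outside PKI Con and 1575, 1742 and 1670 in PKI Con, -0.06 and -0.09 on the log2 scale.

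Rpsa, a protein of the small subunit also known as a laminin receptor, followed the same course with 1 exception. It had 239, 236 and 232 CPM in SmoM2 Con, 247, 244 and 472 in Gnas-eKO Con, and 681, 734 and 687 in PKI Con. The third Gnas-eKO Con library lay between its group and PKI Con, and it did so too for the copy Rpsa-ps2, with 81.4 CPM against 3.67 to 5.38 in the 5 others outside PKI Con and 171 to 200 in it. Rpsa was called against SmoM2 Con (adjusted p = 0.0161), a call lost without any 1 library of either group (0.0524 to 0.0836), and not against Gnas-eKO Con (0.0626). The sum with its 14 near-identical copies was 1613 to 1819 CPM outside PKI Con and 1568 to 1697 in it. Of all 16298 genes tested, 3562 (21.9%) had a transcript at least 90% identical to that of another gene over at least 150 bases, against 93 of the 292 genes called from SmoM2 Con (31.8%) and 89 of the 275 called from Gnas-eKO Con (32.4%). No such transcript was found for the other 199 and 186 called genes. Some genes had no transcript sequence to search with, Rps18-ps6 among the called ones, so the counts with a copy can be too low.

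**Figure D4:**
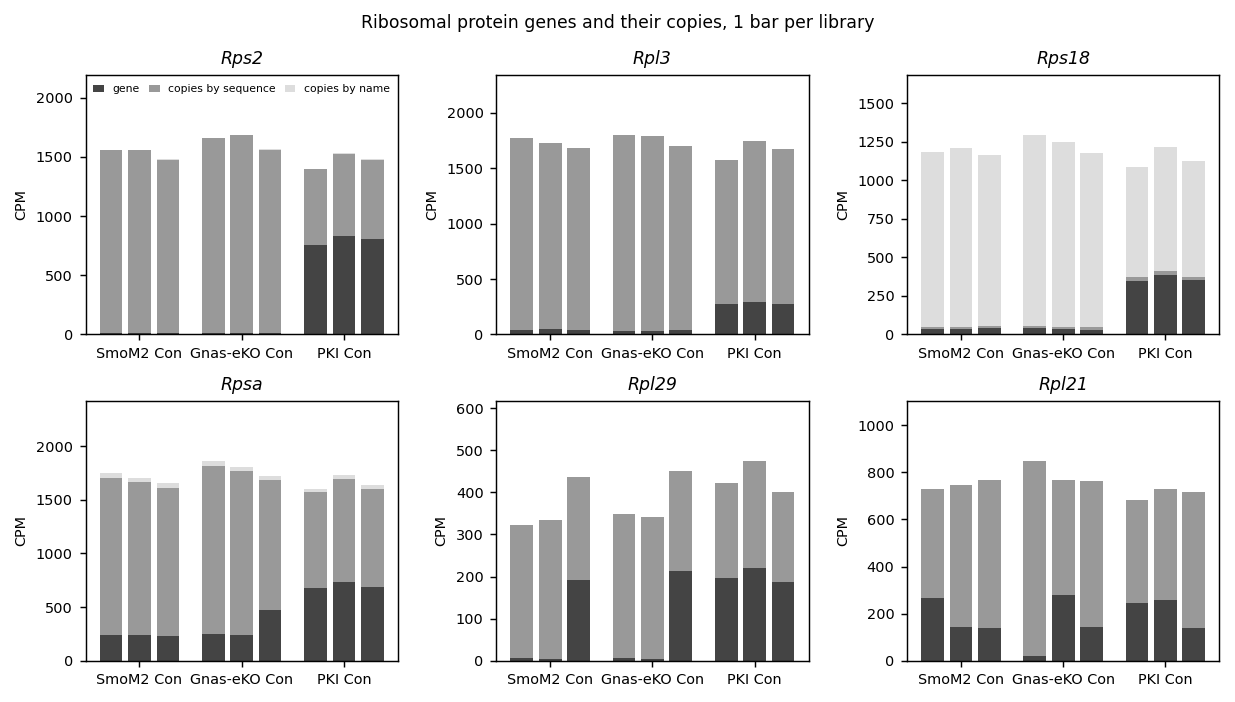
CPM of 6 ribosomal protein genes (dark) and the summed CPM of their copies, matched by sequence (grey) or counted by name alone (pale), stacked, 1 bar per control library from 0. Rps2, Rpl3, Rps18 and Rpsa hold more of the stack in PKI Con, and most of the Rps18 stack is the pale part.

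Mettl7a2 and Krt6b, both on chromosome 15, were low in PKI Con next to relatives that were not. Mettl7a2, a methyltransferase-like protein, had 56.5, 22.3 and 62.9 CPM in SmoM2 Con, 61.9, 54.2 and 52.6 in Gnas-eKO Con, and 0.585, 0.613 and 0.408 in PKI Con (log2 fold change -6.44 ± 0.50 and -6.69 ± 0.50, adjusted p = 0.00059 and 0.000505). Its 2 near-identical relatives together had 547 to 639 CPM across all 9 libraries. Krt6b had 183, 93.1 and 76.1 CPM in SmoM2 Con, 131, 93.4 and 117 in Gnas-eKO Con, and 4.87, 8.34 and 4.78 in PKI Con (log2 fold change -4.30 ± 0.42 and -4.25 ± 0.42, adjusted p = 0.00334 and 0.00361). Krt6a, 92.6% identical over 2185 aligned bases and likewise a keratin of injured or fast-growing epidermis, had 638 to 1283 CPM in the first 2 groups and 684, 768 and 872 in PKI Con and was not called (adjusted p = 0.522 and 0.681).

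Chromosome 17 had the largest share of called genes of any chromosome in both PKI Con comparisons, 48 of 798 (6.02%) against SmoM2 Con and 44 (5.51%) against Gnas-eKO Con, beside 1.79 and 1.69% over all genes. Of the 48, 29 were still called without SmoM2 Con 2, 29 without PKI Con 1 and 27 without PKI Con 3, and of the 44, 29 without PKI Con 3. Between 30 and 40 Mb, the stretch with the major histocompatibility complex, 22 of 198 tested genes (11.1%) and 23 (11.6%) were called, and in the first 10 Mb 7 of 44 (15.9%) in each. The complex encodes the molecules that show peptides to T cells: class I on nearly all cells, class II mainly on cells such as Langerhans cells. Of 20 tested genes of a list of this system, 4 rose and 3 fell in both comparisons, with a median log2 fold change of 0.02 and -0.20 beside 0 over all genes.

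Chromosome 18 had 17 of 457 genes called (3.72%) against Gnas-eKO Con, beside 1.69% over all genes, and 10 (2.19%) against SmoM2 Con, near the 1.79% over all genes. Of the 17, 11 were still called without Gnas-eKO Con 1 or PKI Con 2 and 10 without PKI Con 3, and of the 10, 6 without PKI Con 2 or 3. Gypc, a membrane glycoprotein of red and other cells, had 10.7, 13.9 and 8.43 CPM in SmoM2 Con, 19.5, 22.5 and 21.9 in Gnas-eKO Con, and 0.39, 0 and 0.233 in PKI Con (adjusted p = 0.000183 and 6.89e-05). Gnpda1, an enzyme of amino sugar breakdown with 1 near-identical copy (Gm8615, 99.1% identical), was lowest in Gnas-eKO Con, with 13.5, 13.7 and 12.3 CPM in SmoM2 Con, 6.65, 7.64 and 7.93 in Gnas-eKO Con, and 14.2, 17.3 and 16.8 in PKI Con. It was called against Gnas-eKO Con alone (log2 fold change 1.12 ± 0.13, adjusted p = 0.00148, and 0.35 against SmoM2 Con). Fabp5l2, a processed pseudogene with 5 such copies, had 0.832 to 1.89 CPM outside PKI Con and 9.94, 15.8 and 9.8 in it, and Rps2-ps10, the copy that held most reads of the Rps2 family outside PKI Con, 1413 to 1615 and 514, 558 and 540.

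The called class I genes moved both ways. H2-T22 (chr17:36037128-36042747) had 3.51, 3.22 and 2.69 CPM in SmoM2 Con, 4.4, 3.71 and 3.65 in Gnas-eKO Con, and 26, 26.9 and 29.7 in PKI Con (log2 fold change 3.13 ± 0.15 and 2.81 ± 0.14, adjusted p = 2.2e-06 and 3.37e-06). H2-T10, 97% identical to it, had 9.66 to 11 CPM in the first 2 groups and 0.585, 0.307 and 0.758 in PKI Con (log2 fold change -4.19 ± 0.24 and -4.24 ± 0.24, adjusted p = 7.5e-06 and 7.2e-06). Summed, the pair had 12.9 to 15.4 CPM outside PKI Con and 26.6, 27.2 and 30.5 in it, so here the sum moved as well. BC023719, an RNA annotated antisense over H2-T10, had 9.94 to 14.6 CPM in the 6 libraries and 0, 0.123 and 0.0583 in PKI Con. Without knowledge of strand its reads cannot be told apart from those of H2-T10 wherever their exons overlap. H2-T23, the class I molecule read by natural killer cells, with 1 near-identical copy (H2-T-ps, 95.6% identical), rose from 14.8 to 20.2 CPM to 61.5, 58.8 and 58.7 (log2 fold change 1.87 and 1.80, adjusted p = 1.44e-05 and 2.02e-05). H2-Q4, with 4 such copies (the closest H2-Q6, 92.5% identical), fell from 18.4 to 22.1 CPM to 6.14, 6.26 and 7.06 (log2 fold change -1.60 and -1.64, adjusted p = 5.13e-05 and 4.13e-05). The classical genes, named after their values were seen, also split: H2-K1 had 83.4 to 109 CPM in the 6 libraries and 151 to 168 in PKI Con, and H2-D1 330 to 426 against 202 to 218. B2m, the light chain that all class I molecules share, had 82.5 to 98.8 CPM in the 6 libraries and 81.9 to 102 in PKI Con and was not called (adjusted p = 0.666 and 0.861).

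Of 3 class II genes described here, H2-Eb1 was called and H2-Aa and H2-Ab1 were not. H2-Eb1 had 0.799 ± 0.27 CPM in SmoM2 Con, 0.951 ± 0.225 in Gnas-eKO Con (SD, n = 3) and 19.6, 7.91 and 6.07 in PKI Con (log2 fold change 3.79 ± 0.48 and 3.56 ± 0.48, adjusted p = 0.00416 and 0.00542). H2-Aa, a class II alpha chain, had 29.9 to 49.7 CPM outside PKI Con and 26.5, 12.1 and 9.1 in it, and was not called (adjusted p = 0.28 and 0.145), nor was its partner chain H2-Ab1 (0.847 and 0.595). Cd207, the defining marker of Langerhans cells, had 4.22 to 8.85 CPM outside PKI Con and 6.48, 2.94 and 2.45 in it (adjusted p = 0.682 and 0.395). Across the 9 tested markers of Langerhans cells and macrophages, H2-Eb1 was the 1 gene called, beside 1.79 and 1.69% called over all genes, while the summed list had 123 to 156 CPM in SmoM2 Con, 144 to 201 in Gnas-eKO Con and 65.6 to 186 in PKI Con. The first PKI Con library, the Xist library of its group, was the highest there for these 4 genes.

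T cell genes moved in both directions. Thy1, a surface protein of T cells and other cells (chr9:44043384-44048579), had 132, 115 and 101 CPM in SmoM2 Con, 127, 123 and 130 in Gnas-eKO Con, and 39.2, 20.4 and 27.7 in PKI Con. It fell by 2.00 ± 0.21 and 2.12 ± 0.21 on the log2 scale (adjusted p = 0.00203 and 0.00152), with no overlap, and stayed called without any 1 library. Trdc, the constant part of the delta chain that marks gamma delta T cells, had 0.71, 1.11 and 0.827 CPM in SmoM2 Con, 1.61, 1.34 and 1.97 in Gnas-eKO Con, and 5.36, 3.5 and 2.39 in PKI Con (adjusted p = 0.0146 against SmoM2 Con and 0.127 against Gnas-eKO Con). Cd7, an accessory molecule of T and natural killer cells, had 0 to 0.207 CPM outside PKI Con and 1.66, 1.29 and 2.57 in it (adjusted p = 0.0222 and 0.0189). Il2rb, a subunit of the receptors of interleukins 2 and 15, and Cd3e, of the T cell receptor complex, were called higher against SmoM2 Con alone (adjusted p = 0.0222 and 0.0212, and 0.051 and 0.159 against Gnas-eKO Con). Cd3e, outside the rule for named genes, is given to complete the count. In all, 4 of 9 tested T cell genes rose and 1 fell against SmoM2 Con, and 1 rose and 1 fell against Gnas-eKO Con, beside 1.79 and 1.69% called over all genes. Of these 5 calls against SmoM2 Con, 2 were left without SmoM2 Con 1, SmoM2 Con 2 or PKI Con 1 and 3 without SmoM2 Con 3 or PKI Con 3. Against Gnas-eKO Con, 1 of 2 was left without Gnas-eKO Con 2 or 3 or PKI Con 3. Ptprc, a surface protein of all white blood cells, had 2.43 to 3.65 CPM outside PKI Con and 4.19, 3.31 and 1.87 in it and was not called (adjusted p = 0.873 and 0.965).

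**Figure D5:**
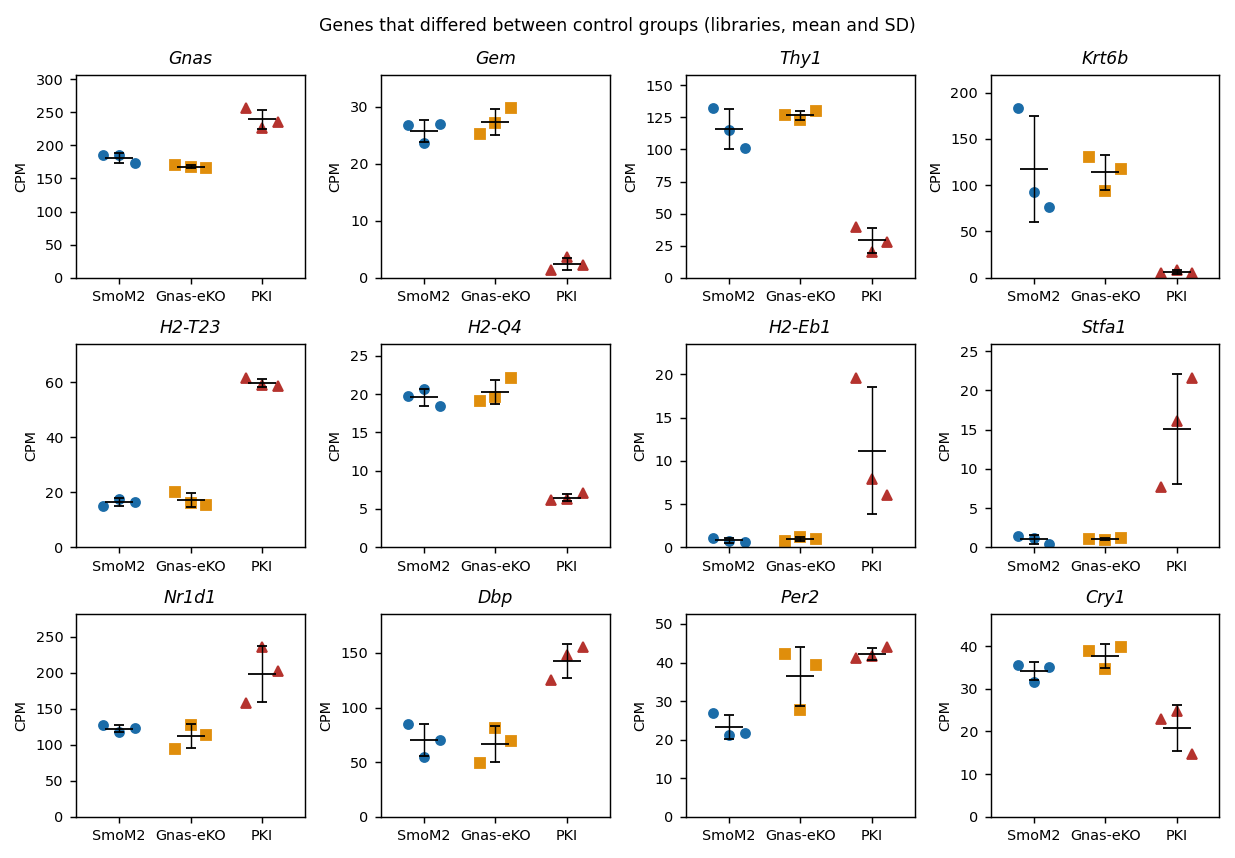
CPM of 12 genes from 0, with 1 point per control library, a bar at the group mean and whiskers of 1 SD (n = 3 per group). Gem, Thy1, Krt6b and H2-Q4 are lower and H2-T23, H2-Eb1 and Stfa1 higher in all 3 PKI Con libraries than in the other 6.

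Of 19 clock genes, all tested, 3 were called in each comparison of PKI Con, beside 1.79 and 1.69% called over all genes. The circadian clock is a loop in which Arntl and Clock drive their own repressors, the Per and Cry genes, and Nr1d1, and the output factor Dbp, so that their levels rise and fall over the day. Nr1d1 had 127, 117 and 123 CPM in SmoM2 Con, 94.4, 128 and 114 in Gnas-eKO Con, and 158, 235 and 203 in PKI Con (log2 fold change 0.70 ± 0.14 and 0.83 ± 0.15, adjusted p = 0.0475 and 0.0238). Dbp had 48.9 to 84.5 CPM in the 6 libraries and 125, 148 and 155 in PKI Con (log2 fold change 1.03 and 1.10, adjusted p = 0.0504 and 0.0402). Cry1 had 31.7 to 39.7 CPM in the 6 libraries and 23, 24.8 and 14.8 in PKI Con (log2 fold change -0.71 and -0.85, adjusted p = 0.0677 and 0.0324). Per2 had 26.8, 21.1 and 21.7 CPM in SmoM2 Con against 41.2, 41.6 and 43.9 in PKI Con (log2 fold change 0.86, adjusted p = 0.018), while Gnas-eKO Con, at 42.2, 27.8 and 39.3, overlapped PKI Con. The calls were 2 rises and 1 fall in each comparison, Nr1d1 and Per2 with Arntl against SmoM2 Con, and Nr1d1 and Dbp with Cry1 against Gnas-eKO Con. The median of the list was 0.27 and 0.02. These calls rested on single libraries: none of the 3 against SmoM2 Con was called without SmoM2 Con 2 or 3 or PKI Con 2 or 3, and 1 without SmoM2 Con 1 or Gnas-eKO Con 2 or 3. Of the 3 against Gnas-eKO Con, 0 were called without Gnas-eKO Con 1 or 3 and 1 without any 1 PKI Con library.

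The promoters of Cry1 and Nr1d1, called in opposite directions, are shown from 250 bases before the start of transcription to the base before it (RefSeq, GRCm38.p6, Cry1 at chr10:85185055-85185304 and Nr1d1 at chr11:98775378-98775627, both on the minus strand). Capitals mark the E-box CACGTG, which reads the same on both strands and to which Arntl and Clock are known to bind.
Cry1: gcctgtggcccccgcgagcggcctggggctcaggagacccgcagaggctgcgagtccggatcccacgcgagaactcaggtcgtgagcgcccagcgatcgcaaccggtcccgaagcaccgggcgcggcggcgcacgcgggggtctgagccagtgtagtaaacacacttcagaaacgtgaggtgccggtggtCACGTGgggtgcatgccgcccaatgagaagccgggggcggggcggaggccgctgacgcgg
Nr1d1: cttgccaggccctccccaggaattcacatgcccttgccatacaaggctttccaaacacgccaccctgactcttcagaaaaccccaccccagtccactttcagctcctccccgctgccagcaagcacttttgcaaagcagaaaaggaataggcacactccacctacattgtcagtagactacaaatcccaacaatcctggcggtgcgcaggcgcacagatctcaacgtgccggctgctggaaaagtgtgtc
The E-box letters occurred in 5 of the 16 clock genes found in the promoter table and in 6.02% of 32851 promoters of the same length. Of the 4 called genes found there, Cry1 held it. AGGTCA, searched on both strands as the letters read by Nr1d1 and Rora, was in 4 of the 16 and 14% of all promoters, and TTATGNAA, for Dbp and its relatives, in 2 and in 3.07%. For each motif a clock gene was counted if any of its promoters held the letters, while the percentages are over single promoters. The gene counts and the percentages are thus not directly comparable.

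Among wound and alarm genes, 1 of 13 tested rose and 1 fell in both comparisons, beside 1.79 and 1.69% called over all genes. Stfa1, a cystatin that blocks cysteine proteases, rose from 0.362 to 1.47 CPM to 7.65, 16.1 and 21.6 in PKI Con (log2 fold change 3.87 ± 0.49 in both, adjusted p = 0.00449 and 0.00473), and Krt6b fell as given above. S100a8, S100a9 and Krt16 were not called (adjusted p = 0.33, 0.322 and 0.105 against SmoM2 Con). The median of the list was -1.37 and -0.79. Of 20 genes of early response and dissociation stress, Hspa1a, an inducible heat shock protein with 1 near-identical copy (Hspa1b, 99.2% identical), had 254, 310 and 381 CPM in SmoM2 Con, 267, 245 and 236 in Gnas-eKO Con, and 181, 205 and 161 in PKI Con (log2 fold change -0.79, adjusted p = 0.0242 against SmoM2 Con and 0.179 against Gnas-eKO Con). That call was lost without SmoM2 Con 2, PKI Con 1 or PKI Con 3 (0.0776, 0.0873 and 0.0878). Of 10 tested genes whose level is known to vary between laboratory mouse strains, 2 rose and 1 fell in both comparisons, against the same 1.79 and 1.69%: Ide, an insulin-degrading protease, from 147 to 214 CPM to 275, 314 and 395, Fgfbp3, which binds fibroblast growth factors, from 3.66 to 7.68 to 17.5, 14.2 and 23.2, and Wdfy1, an endosomal adaptor, from 33.7 to 45.7 to 25.4, 24.8 and 25.3. Their adjusted p-values were 0.0295, 0.00458 and 0.0139 against SmoM2 Con and 0.0242, 0.0141 and 0.0306 against Gnas-eKO Con. Of the 3, 1 was left without PKI Con 2 or 3 against SmoM2 Con. Against Gnas-eKO Con 0 were left without Gnas-eKO Con 2 or PKI Con 3 and 1 without PKI Con 2, while 5 of the list were called without SmoM2 Con 1.

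The genes for which the tumour models are named were near level in the controls, apart from Gnas. Gnas, the stimulatory G protein that activates adenylyl cyclase (chr2:174284320-174346744), had 186, 186 and 173 CPM in SmoM2 Con, 171, 167 and 166 in Gnas-eKO Con, and 256, 227 and 235 in PKI Con. PKI Con was above all others by 0.40 ± 0.06 and 0.51 ± 0.06 on the log2 scale (adjusted p = 0.012 and 0.00256), and the controls of the Gnas-eKO model did not pass the test against those of SmoM2 (log2 fold change -0.11 ± 0.06, adjusted p = 0.983). Each call was lost in 1 of 18 other settings, the fit of all 21 libraries (adjusted p = 0.516 and 0.268). Smo, the Hedgehog signal transducer, had 90.6 to 109 CPM over the 9 libraries, and Pkia, the gene of a natural inhibitor of protein kinase A, 3.05 to 5.72, and neither was called in any comparison (adjusted p from 0.829 to 0.996). Of 18 tested genes of cyclic AMP and protein kinase A, Gnas was the 1 called by edgeR in the comparisons of PKI Con, beside 1.79 and 1.69% called over all genes. Of 11 tested Hedgehog genes edgeR called none, and DESeq2 called Gli3, a transcription factor of the pathway, in both.

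The layers and appendages of the epidermis held no called gene in any comparison of controls by edgeR. This covers the 14 basal, 12 spinous, 22 granular and cornified, 12 scale and hard keratin, 8 inner root sheath, 14 follicle, 16 sebocyte and 12 melanocyte genes tested, and also 18 of proliferation, 21 of sterol synthesis and 13 of the mitochondrial respiratory chain. None of the tested fibroblast, endothelial, muscle, erythroid, Schwann, Merkel, neutrophil or interferon-stimulated genes was called either. Over the 212 tested genes of these lists, the Hedgehog list and the list of X inactivation and Y-linked genes, 12 (5.66%) had an unadjusted p under 0.05 between Gnas-eKO Con and SmoM2 Con, 26 (12.3%) between PKI Con and SmoM2 Con and 22 (10.4%) between PKI Con and Gnas-eKO Con, beside 739 (4.53%), 2147 (13.2%) and 2255 (13.8%) of all genes. DESeq2 called 0, 8 (3.77%) and 10 (4.72%) of them, beside 4.20 and 4.35% of all genes in the comparisons of PKI Con, so these shares were near those of all genes. Some of these lists still leaned one way against PKI Con: the median log2 fold change was -1.46 and -1.58 for scale and hard keratins and -1.48 and -1.05 for the inner root sheath, beside 0 over all genes. In those lists the spread inside groups was wide, with sums of 20097 to 45515 CPM in SmoM2 Con, 16868 to 36892 in Gnas-eKO Con and 11906 to 27836 in PKI Con for the scale list.

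The tumour libraries of the same models, which share no library with the controls, give the members called here a second set of values. They have the same day and batch as the controls of their model, so day, batch and model cannot be told apart here either. Of the 275 genes called between PKI Con and Gnas-eKO Con, 267 were tested between the 4 PKI and the 4 Gnas-eKO tumour libraries, where 2712 of 16255 genes were called (16.7%). They went the same way in 210 cases (78.7%), beside 46.6% of all 15679 genes tested in both. Called in the same direction were 124, which is 46.4% of the control genes and 4.57% of the tumour genes, and 16 were called in the opposite direction. Ostf1 had at most 0.589 CPM in the SmoM2 and Gnas-eKO tumours and 64.1 to 73.3 in those of PKI, and Rps2 10.1 to 17 against 877 to 1043. Slc15a2 did not keep its split, with 9.27 to 15 CPM in SmoM2 tumours, 3.21 to 29.5 in Gnas-eKO tumours and 0.723 to 40.8 in PKI tumours. H2-Eb1 had 0.504 to 2.17 CPM in the SmoM2 and Gnas-eKO tumours and 30.7 to 124 in those of PKI. Krt6b, low in PKI Con, went the other way, with 98.5 to 590 CPM in Gnas-eKO tumours and 1302 to 4140 in PKI tumours. So did Gypc, with 3.28 to 7.72 CPM in Gnas-eKO tumours and 10.9 to 15.3 in PKI tumours. Gem had 3.53 to 5.46 CPM in SmoM2 tumours, 21.3 to 37.9 in Gnas-eKO tumours and 1.97 to 2.18 in PKI tumours, so SmoM2 tumours did not sit with SmoM2 Con. In the headers the SmoM2 tumour animals have the prefix BF where those of SmoM2 Con have TJ, and those of PKI Con and PKI tumours share ZQ.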

How the data were processed

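Per the submitters' processing notes, bcl2fastq 2.20, cutadapt 1.18, STAR 2.7.0f and Partek were used with build mm10. The annotation and the use of strand in counting are not given in the sources used here. The authors deposited estimated counts per gene without normalization, of which 33.1% are not whole numbers, for 23713 genes, each with at least 10 counts over the 21 libraries. A second table the authors deposited holds a normalized signal (counts times a TMM factor per library). Counts were rounded and tested here in R 4.3.3 with edgeR 4.0.16: genes filtered by group, TMM factors, 1 robust quasi-likelihood fit of the 9 libraries with 3 groups, and Benjamini-Hochberg adjustment over 16298 genes at 0.05. CPM and TPM values were computed from those counts, log2 CPM with a prior count of 2. Exon lengths came from GENCODE M21, which holds 23048 of the genes by symbol. Deposited ends lie 1 base past the annotated end and are given 1 base lower. The fit was also run on simulated independent counts with planted changes, and its outcome is not given here. Those counts held neither the Xist split nor shifts of reads between copies. No pair of replicates agreed within sampling noise.

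Near-identical copies were sought among the GENCODE M21 transcripts of the counted genes, not in the genome as a whole. They were taken at 90% identity or more over at least 150 bases and 50% of the shorter transcript. Pseudogenes that carry the parent's symbol but had no such match, or no transcript sequence to compare, are counted by name alone where stated. Named were the 20 genes with the highest TPM, the 15 and 10 with the highest total and residual SD, the 10 steadiest, the 6 highest and 6 lowest fold changes per comparison without overlap, Smo, Gnas and Pkia, up to 4 called members of each of 29 gene lists, Xist with Y-linked genes and Hhip, and the 5 with the smallest adjusted p on each chromosome with over 2 times the overall share of calls. The genes, lists and comparisons were chosen with earlier results of these data known. Alternatives used DESeq2 1.42.0 and limma 3.58.1, other scalings, filters and covariates, a replicate block and each library left out. The comparison of tumour libraries, the sums over copies and the components without X and Y genes were added after the data were seen.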

Additional observations from a re-analysis of the deposited data

How the results depend on the processing

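DESeq2 called 685 genes against SmoM2 Con, 709 against Gnas-eKO Con and 794 for any difference, among them all 292, 275 and 268 of edgeR, and 19 between Gnas-eKO Con and SmoM2 Con. A covariate for Xist gave 529 against SmoM2 Con, 383 against Gnas-eKO Con and 438 for any difference. Between Gnas-eKO Con and SmoM2 Con, fits of all 21 libraries or of the 6 compared gave 0 calls, and joint adjustment over the 3 comparisons gave 5. Without single libraries the counts ran from 0 to 11 there, from 155 to 321 against SmoM2 Con, from 145 to 357 against Gnas-eKO Con and from 144 to 325 for any difference. Replicate numbers do not pair the libraries, whose deviations correlated from -0.365 to 0.292, and a replicate block gave 0, 166 and 156 calls and 130 for any difference. By the test for any difference, gene lists held 22 called genes, 36 with the covariate, 14 with the block and 13 to 24 without single libraries. In the comparisons of PKI Con with SmoM2 Con and Gnas-eKO Con, chromosome 17 held 28 to 47 and 30 to 55 calls without single libraries. The 20 leading genes held 19.5% of TPM by longest transcript and 15.2% of CPM, sharing 19 and 13 genes with the 20 named, and 21.9 to 22.2% without single libraries. The median SD was 0.177 on the authors' values and 0.190 to 0.201 without single libraries. Of 37 named called genes per comparison, 598 of 666 and 605 of 666 values over 18 alternatives stayed called, and 21 and 23 genes stayed called in all. Values turned sign for uncalled genes alone, each without 1 library. Pkia ran from -0.15 to 0.32 between Gnas-eKO Con and SmoM2 Con (0.03 with all libraries), from -0.17 to 0.30 against SmoM2 Con (0.01) and from -0.19 to 0.09 against Gnas-eKO Con (-0.02), and Smo from -0.05 to 0.07 against SmoM2 Con (0.02). The cause of these shifts was not tested. Permutation p-values of the library measures ran from 0.121 to 0.714 and the distance ratio from 1.11 to 1.19.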
